A study of Lycium barbarum and Lycium ruthenicum with 30 samples.

Results

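Photosynthesis unigenes were followed through fruit ripening in 2 wolfberries, Lycium ruthenicum (LR), which bears black fruit, and Lycium barbarum (LB), which bears red fruit. A unigene is a cluster of transcripts from a de novo assembly and stands here for a gene. The 10 unigenes were taken from the list of stage-dependent unigenes in LR that the study assigned to the KEGG pathway photosynthesis. They are 10 of the 18 unigenes of that list that could be read, out of 326276 unigenes in the whole table. How the 10 were picked from the 18 is not stated. The list was drawn from the stage contrasts of the LR libraries. Values over the LR stages are therefore given as a description without a test. Tests are given in LB and between species. Those between species use the same LR values, so their p-values are not separate from the choice of the list. All 10 passed the filter on low values, at least 3 of 30 libraries with 1 or more FPKM (a read level corrected for transcript length and library depth), as did 111217 unigenes in all.

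Fruit was sampled at 5 stages: young (S1), green (S2), colouring (S3), immature (S4) and mature (S5), from 3 trees per species and stage, 1 library each. Both species are labelled wild type and no agent was applied. The LR shrubs were wild plants of a saline desert. The LB shrubs were cultivated and watered at a nursery in another place. A difference between LR and LB therefore cannot be told apart from one of site or watering. The study set the stages roughly by days after flowering, because ripening time varies and differs slightly between the species. Its windows for S4 and S5 overlap, so a difference in ripeness at the same stage cannot be told apart either. The species of the columns rests on the study and not on the sample titles, which give the opposite: of 210 values printed for single unigenes under LB or LR in the supplement, 210 equal the column assigned by its code and 6 equal the column assigned by title. The expression values carry no gene names, though the supplement gives putative names for some unigenes, such as a chalcone synthase. The labelled tissue was not checked against markers, and which subunit each of the 10 encodes was not analysed here.

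Photosynthesis in the chloroplast rests on the photosystems that capture light energy, the cytochrome complex, plastocyanin and ferredoxin that pass electrons on, and an ATP synthase driven by the resulting proton gradient. Antenna proteins are the chlorophyll-binding proteins that feed light energy into the photosystems. Young fruit of the nightshade family is green and photosynthesises, and its chloroplasts are dismantled or turned into chromoplasts as the fruit ripens, with carotenoids giving the colour of red wolfberry.

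Sequencing depth relative to the first LB S1 library, read from the smallest steps of the FPKM values, ranged from 0.726 to 1.20 in LB and from 0.670 to 1.38 in LR. A larger difference lay in the make-up of the libraries. The 46 unigenes with a mean of 10000 FPKM or more in either species took, as stage means, 34.7% to 59.0% of the FPKM in LR and 5.48% to 16% in LB, so that in LR the other unigenes shared a smaller remainder. The median difference of all unigenes tested between LR and LB was below 0 at every stage, from -0.49 at S4 to -0.25 at S3 on the log2 scale. As 1 alternative, the third LB library of S4 and the second of S5 were left out together. This left the counts of called unigenes in LB S3 vs. S4 (3), LB S1 vs. S5 (5) and between species at S5 (10) as they were, and the counts that it moved by over 1.5 times are given with the result. In whole fruit, fewer cells with chloroplasts and less RNA per cell cannot be told apart.

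Most of the photosynthesis unigenes had lower values in colouring than in green fruit of both species, and from S4 to S5 their summed level was higher in LB and lower in LR, although DN95560_c1_g1 and DN77957_c4_g1 differed in course between the species before that. Summed over the 10 unigenes, LR had 1002 ± 187 FPKM at S1, 711 ± 258 at S2, 190 ± 60.3 at S3, 101 ± 42.0 at S4 and 67.7 ± 11.2 at S5 (SD, n = 3 throughout). The sum in LB was 1532 ± 357 FPKM at S1, 1617 ± 386 at S2, 355 ± 29.6 at S3, 179 ± 80.9 at S4 and 549 ± 175 at S5. The lowest LB library of S5 (436 FPKM) lay above the highest of S4 (269 FPKM), whereas the LR libraries of S5 (54.8 to 75.2 FPKM) overlapped with those of S4 (62.7 to 146 FPKM). Per unigene, the mean at S5 as a share of that at S1 had a median of 6.51% in LR (1.18% to 13.0%) and 33.4% in LB (8.26% to 177%). At S4 the same shares had medians of 7.46% in LR and 9.04% in LB. The lowest stage mean was at S4 in LB for 9 of 10 unigenes and at S3 for the other, while in LR it was at S5 for 7 and at S4 for 3.

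**Figure D1:**
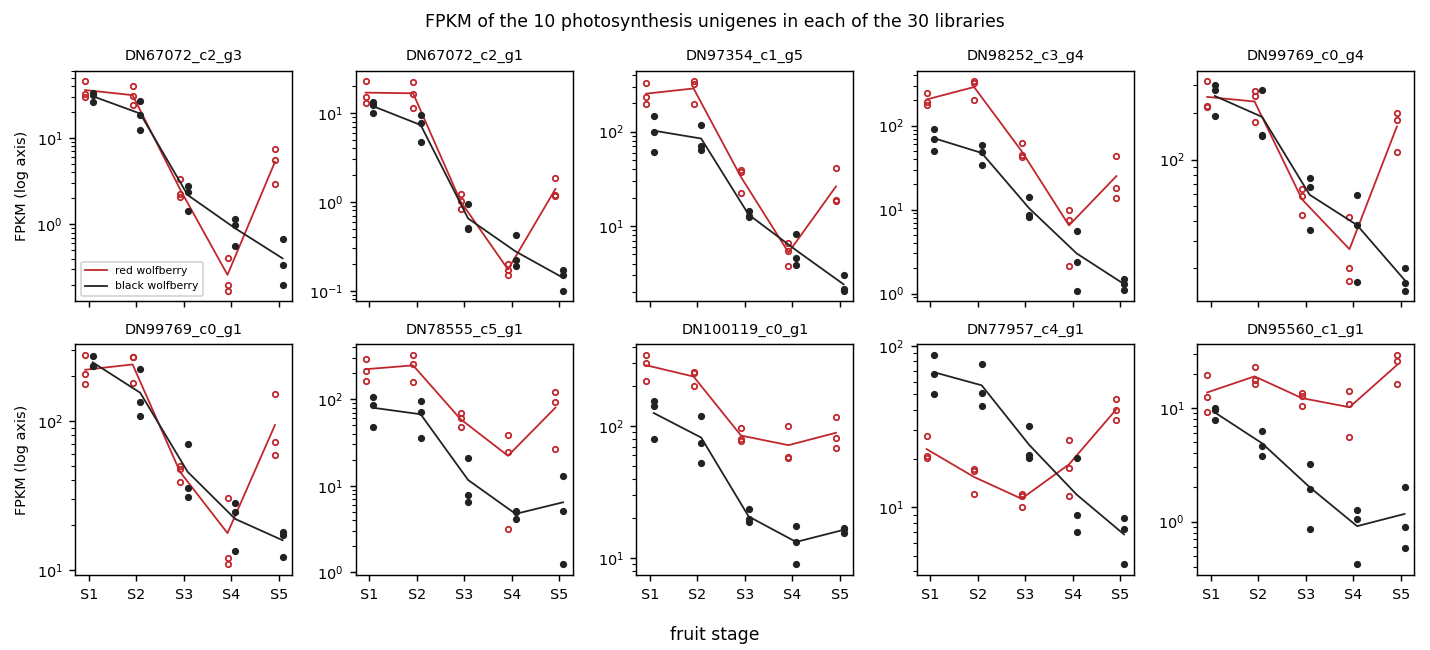
FPKM of each of the 10 unigenes on a log axis against fruit stage, with open red points for the 15 LB libraries, filled black points for the 15 LR libraries and lines through the stage means. The LB line turns upward from S4 to S5 in every panel, by a ratio of 1.24 to 20.3, and the LR points of S5 lie below all LB points of S5 in 10 of 10 panels.

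In LB, 9 of 10 unigenes were stage-dependent (F test of limma with an adjusted p under 0.01, and stage means with an R2 of at least 0.7), against a background of 19.7% of all unigenes. The exception was DN95560_c1_g1 (adjusted p = 0.076, R2 = 0.599). In LR 10 of 10 met these thresholds (background 11.3%), which the choice of the list fixes. No unigene passed the pairwise test of limma (adjusted p under 0.01 and a 2-fold difference) in LB S1 vs. S2, where the background was 3.82% lower and 2.49% higher. An unadjusted p under 0.05 was also reached by 0 of 10, a threshold for which the share of all unigenes was not computed. In LB S2 vs. S3, 7 of 10 were lower at S3 (background 4.06%) and 0 were higher (background 1.22%), with a median difference of -2.21 on the log2 (FPKM + 0.5) scale against -0.11 for all unigenes. In LB S3 vs. S4, 3 of 10 were lower at S4 (background 0.162%) and 0 higher (background 0.108%), with a median of -1.32. This count was 1 without the third LB library of S3.

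In the last step in LB, S4 vs. S5, 5 of 10 unigenes were higher at S5 (background 0.9%) and 0 were lower (background 0.316%). The difference was positive for 10 of 10, from 0.32 to 2.86 with a median of 2.02, while the median of all unigenes was 0.02. For 8 of 10 the 3 libraries of S5 all lay above the 3 of S4, against 11% of all unigenes. The exceptions were DN78555_c5_g1 and DN100119_c0_g1. Without the third LB library of S4 and the second of S5 together 3 of 10 were called, as without the third library of S5 alone. A fit to only the 6 libraries compared, which leaves 4 of the 20 residual degrees of freedom, called 0 of 10 and 1 of all 111217 unigenes; the 5 unigenes then had adjusted p between 0.23 and 0.35.

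The same step in LR, S4 vs. S5, is described without a test. The number beyond the thresholds was 0 of 10 in either direction (background 0.192% lower, 2.36% higher), from which nothing is read, since the list was chosen on the LR stages. Differences ran from -0.997 to 0.34 with a median of -0.53, where the median of all unigenes was 0.26. In 2 of 10, all LR libraries of S5 lay below those of S4 (background 2.33%). After median-of-ratios scaling of the libraries the LR median was -1.18 with 2 unigenes beyond the thresholds, and after rescaling without the 46 abundant unigenes it was -1.05 with 1 beyond them, while the LB median was 1.85 and 2.03. The change in LR minus the change in LB had a median of -2.42 (-3.66 to 0.02) and was negative for 9 of 10; it has no test, since it holds the contrast on which the list was chosen.

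**Figure D2:**
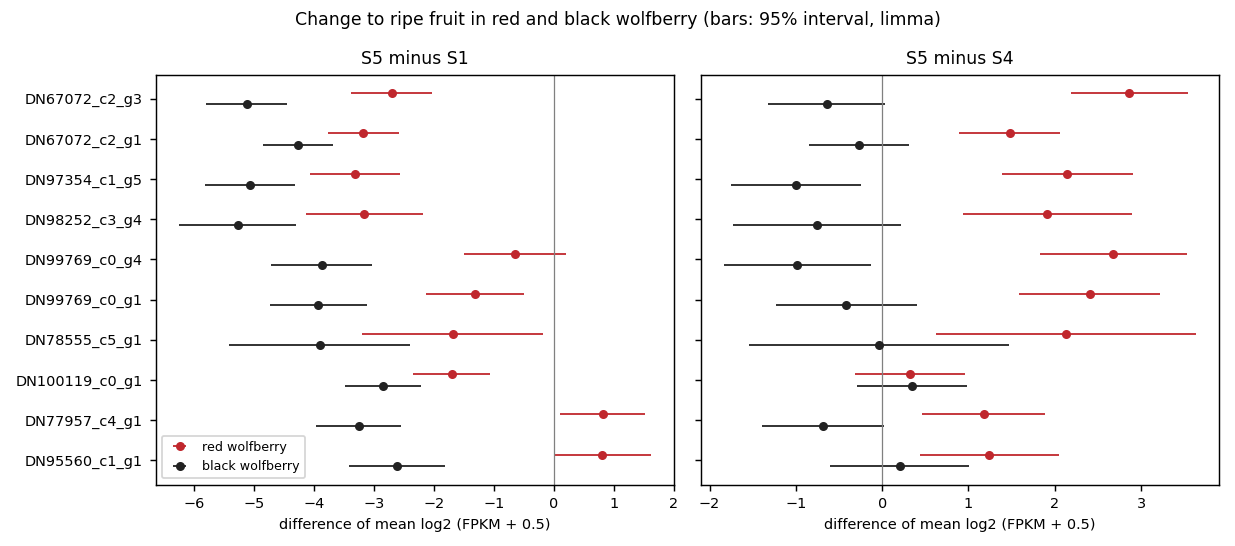
Differences of mean log2 (FPKM + 0.5) between S5 and S1 (left) and between S5 and S4 (right) for each unigene, LB in red and LR in black, with 95% intervals from limma. On the right, the LB values lie between 0.32 and 2.86 and the LR values between -0.997 and 0.34; on the left, the LR values lie between -5.27 and -2.62 and the LB values between -3.32 and 0.81.

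A group of 4 unigenes had a steep fall in LB that was only partly made up by S5. TRINITY_DN67072_c2_g3 had 30.1, 32.1 and 45.6 FPKM in the LB libraries of S1 and 39.8, 30.3 and 24.0 at S2. Its LB values were 2.07, 2.23 and 3.35 FPKM at S3, 0.20, 0.41 and 0.17 at S4, and 2.96, 7.41 and 5.50 at S5. All libraries of S5 were above all of S4 and below all of S1 and S2. The rise from S4 to S5 was 2.86 on the log2 scale (SE 0.33, adjusted p = 1.2e-05), and the mean of S5 was 20.3 times that of S4 and 14.7% of that of S1. In LR it had 33.3, 31.7 and 26.4 FPKM at S1, 12.5, 26.9 and 18.2 at S2, 1.43, 2.34 and 2.79 at S3, 0.98, 0.56 and 1.16 at S4, and 0.20, 0.34 and 0.67 at S5. The LR libraries lay above those of LB at S4 without overlap, though the difference was not called (0.87, SE 0.33, adjusted p = 0.034), and LR was lower at S5 (-2.63, SE 0.33, adjusted p = 4.4e-07).

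TRINITY_DN67072_c2_g1 carries the same assembly component number as DN67072_c2_g3, so reads of near-identical sequence could be split between them and the values of both are uncertain and not independent. Its LB values were 12.9, 15.1 and 22.8 FPKM at S1, 22.1, 16.3 and 11.5 at S2, and 0.82, 1.01 and 1.21 at S3. They reached 0.17, 0.20 and 0.15 FPKM at S4 and 1.17, 1.18 and 1.84 at S5. The groups S4 and S5 did not overlap, and the difference was 1.48 (SE 0.28, adjusted p = 0.0037), but at values this low it depended on the offset: it was 1.02 with an adjusted p of 0.018 at an offset of 1. The call was also lost without any 1 of the LB libraries of S4 or without the third of S5 (adjusted p between 0.012 and 0.028). The LR means went from 11.9 ± 1.69 FPKM at S1 through 7.31 ± 2.43, 0.65 ± 0.251 and 0.277 ± 0.125 to 0.14 ± 0.0361 at S5, the latter 1.18% of S1, the lowest share of the 10. The ratio of DN67072_c2_g3 to DN67072_c2_g1 was 2.16 on average in LB at S1 and 3.93 at S5 (2.53 to 6.28), and in LR 2.58 and 2.89.

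TRINITY_DN97354_c1_g5 had 198, 235 and 326 FPKM in LB at S1 and 344, 319 and 199 at S2. The LB libraries of S3 had 37.6, 22.1 and 39.3 FPKM, those of S4 5.40, 6.60 and 3.73, and those of S5 18.9, 18.4 and 41.4. It fell in LB S2 vs. S3 by 3.11 (SE 0.36, adjusted p = 3.9e-06) and again in S3 vs. S4 by 2.53 (SE 0.36, adjusted p = 0.00068), and rose in S4 vs. S5 by 2.15 (SE 0.36, adjusted p = 0.0012). The rise had an adjusted p of 0.013 without the third library of S5, the highest of its group. In LR its values were 100, 146 and 61.0 FPKM at S1, 8.25, 3.83 and 4.53 at S4 and 2.17, 3.01 and 2.06 at S5. The LR libraries of S5 all lay below those of S4, the opposite of LB, and at S4 the species differed by 0.04 (SE 0.36, adjusted p of 1).

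TRINITY_DN98252_c3_g4 had 174, 193 and 248 FPKM in LB at S1, 339, 323 and 203 at S2, and 44.9, 42.5 and 62.4 at S3. At S4 the LB values were 7.43, 9.88 and 2.15 FPKM, the lowest in the third library, and at S5 17.97, 13.9 and 43.4. The 2 groups did not overlap, but the difference of 1.91 (SE 0.47) had an adjusted p of 0.023 and was not called. LR had 70.0, 92.1 and 50.3 FPKM at S1 and 1.10, 1.49 and 1.30 at S5, with the largest difference between these stages of the 10 in LR, -5.27. It was the unigene with the largest difference between species at S2, where LR was lower (-2.60, SE 0.47, adjusted p = 9e-05).

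Another 3 unigenes came back further in ripe LB fruit. TRINITY_DN99769_c0_g4 had 222, 217 and 319 FPKM in LB at S1, 276, 257 and 175 at S2 and 64.4, 44.1 and 58.0 at S3. It had 19.96, 43.1 and 16.6 FPKM at S4 and 111, 179 and 199 at S5, so that each library of S5 was above those of S3 and S4. The rise in S4 vs. S5 was 2.68 (SE 0.41, adjusted p = 0.00044), and 2.32 with an adjusted p of 0.011 without the third library of S4 and the second of S5. The mean at S5 was 64.6% of that at S1, a difference of -0.65 (SE 0.41, adjusted p = 0.32). In LR the values were 280, 299 and 190 FPKM at S1 and 15.99, 14.4 and 20.2 at S5. The species differed by 0.02 at S1 (SE 0.41, adjusted p of 1) and by -3.21 at S5 (SE 0.41, adjusted p = 6.6e-07).

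TRINITY_DN99769_c0_g1, of the same assembly component and subject to the same limit on shared reads, had 177, 206 and 277 FPKM in LB at S1, 12.1, 30.3 and 10.96 at S4, and 72.2, 59.2 and 150 at S5. Its rise from S4 to S5 was 2.40 (SE 0.39, adjusted p = 0.00089), with no overlap. The mean at S5 was 42.7% of that at S1 (-1.32, SE 0.39, adjusted p = 0.017, not called; 0.0037 without the third library of S5). LR had 235, 272.1 and 233 FPKM at S1, 28.3, 13.4 and 24.6 at S4 and 18.1, 12.3 and 17.3 at S5, where the last 2 groups overlap. The ratio of DN99769_c0_g4 to DN99769_c0_g1 stayed between 0.818 and 2.09 in the LR libraries and reached 3.03 in 1 LB library of S5.

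TRINITY_DN78555_c5_g1 had 164, 210 and 292 FPKM in LB at S1, 24.4, 39.0 and 3.20 at S4, and 92.4, 26.3 and 121 at S5. The third library of S4 and the second of S5 gave the lowest value of each group. The 2 groups overlap, and the difference of 2.13 (SE 0.73, adjusted p = 0.11) was not called. The unigene had the largest SE of the 10. LR values were 48.2, 85.3 and 105 FPKM at S1, 5.09, 4.08 and 5.01 at S4 and 13.0, 1.23 and 5.08 at S5. Its LR libraries of S5 were spread on either side of those of S4, while the species difference at S5 was -3.73 (SE 0.73, adjusted p = 0.00018).

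TRINITY_DN100119_c0_g1 fell once in LB and then stayed. LB values were 218, 304 and 348 FPKM at S1, 254, 260 and 200 at S2, 97.3, 77.1 and 79.9 at S3, 57.4, 99.6 and 58.2 at S4, and 67.9, 81.0 and 118 at S5. The last 3 groups overlap, and S4 vs. S5 differed by 0.32 (SE 0.31, adjusted p = 0.75). LR had 142, 155 and 80.1 FPKM at S1, 18.8, 19.6 and 23.4 at S3, 17.5, 13.2 and 8.91 at S4, and 16.6, 15.5 and 16.9 at S5. Its change from S4 to S5 was 0.34 in LR (SE 0.31), so that it was the 1 unigene of 10 for which the change in LR minus that in LB was not negative (0.02, SE 0.44). LR was below LB with no overlap at every stage, with a difference of -1.23 at S1 (SE 0.31, adjusted p = 0.0023) and of -2.37 at S5 (SE 0.31, adjusted p = 8.6e-07). The difference at S1 was -0.64 with an adjusted p of 0.068 after median-of-ratios scaling, and its adjusted p was between 0.010 and 0.026 without the third LR library or the second or the third LB library of S1.

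The other 2 had a higher mean at S5 than at S1 in LB, though the means of both were lower at S3 than at S2. TRINITY_DN77957_c4_g1 had 20.1, 20.9 and 27.7 FPKM in LB at S1, 16.9, 17.2 and 12.1 at S2, 12.1, 10.1 and 11.7 at S3, 17.5, 26.0 and 11.7 at S4, and 34.5, 46.8 and 40.1 at S5. All libraries of S5 lay above all others of LB. The mean at S5 was 177% of that at S1, a difference of 0.81 (SE 0.34, adjusted p = 0.098), and no step passed the test although the course as a whole did (F test, adjusted p = 0.0023, R2 = 0.842). LR had 67.3, 87.8 and 50.4 FPKM at S1, 50.9, 77.2 and 42.6 at S2, 21.2, 20.2 and 31.7 at S3, 20.1, 8.90 and 7.01 at S4, and 7.36, 4.42 and 8.58 at S5. LR was higher than LB at S1 by 1.54 (SE 0.34, adjusted p = 0.00078) and at S2 by 1.82 (SE 0.34, adjusted p = 0.00013), and lower at S5 (-2.53, SE 0.34, adjusted p = 1.6e-06), each without overlap.

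TRINITY_DN95560_c1_g1 had 12.5, 9.15 and 19.6 FPKM in LB at S1, 22.9, 17.8 and 16.4 at S2, 10.5, 13.5 and 12.7 at S3, 10.95, 14.02 and 5.57 at S4, and 16.4, 26.0 and 29.4 at S5. Groups of neighbouring stages overlap except S2 with S3 and S4 with S5, and no step was called (S4 vs. S5 1.24, SE 0.39, adjusted p = 0.080). In LR it had 10.1, 7.87 and 9.58 FPKM at S1, 4.63, 3.76 and 6.29 at S2, 0.87, 1.94 and 3.23 at S3, 0.42, 1.05 and 1.27 at S4, and 0.59, 2.02 and 0.90 at S5. LR and LB overlapped at S1 (-0.50, SE 0.39, adjusted p = 0.33) and were apart from S2 on. At S5 the difference of -3.92 (SE 0.39, adjusted p = 1.2e-08) was the largest of the 10.

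Within each species, the 10 unigenes varied together to different degrees. Over the 15 LR libraries, the 45 pairs had a median Pearson r of log2 (FPKM + 0.5) of 0.940 (0.776 to 0.990), and over the 15 LB libraries of 0.856 (-0.0966 to 0.981). These are descriptions, since the libraries share stages and the list was chosen on the LR stages. DN77957_c4_g1 had a median r with the other 9 of 0.935 in LR and 0.153 in LB, and DN95560_c1_g1 of 0.861 and 0.457. For the remaining 8 the median was 0.851 or more in both species.

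Between species, all 10 unigenes were called lower in LR only at S5. At S2 the difference was negative for 9 of 10, with a median of -1.37 against -0.33 for all unigenes. At S1, 3 of 10 unigenes were lower in LR (background 20.6%) and 1 was higher (background 10.3%), which is near the background. At S2 5 were lower (background 19.6%) and 1 higher (background 11.2%), at S3 5 lower (background 21.5%) and 0 higher (background 10.5%), and at S4 2 lower (background 24.5%) and 0 higher (background 8.72%). At S5, 10 of 10 were lower in LR (background 21%) and 0 higher (background 12.2%), with differences from -3.92 to -1.55 and a median of -2.87, while the median of all unigenes was -0.26. The LR libraries of S5 lay below all 3 LB libraries for 10 of 10, against 30.6% of all unigenes. The LR libraries of all stages had entered the choice of the list, so these tests are not separate from it. Their p-values do not allow for that choice. Leaving out any 1 library left the count at S5 at 10, and a fit to only the 6 libraries gave 8, without DN99769_c0_g1 (adjusted p = 0.011) and DN78555_c5_g1 (adjusted p = 0.045). The latter fit called 25414 of all 111217 unigenes in either direction. The earlier counts were less stable: at S1 it was 2 without the first LR library and 1 without the third LR, the second LB or the third LB library. At S3 it was 3 without the first or second LR or the first or the third LB library, and at S4 it was 4 without the third LB library, alone or together with the second LB library of S5.

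The differences before S5 depended on the scaling. After median-of-ratios scaling, which brings the median of all unigenes to between -0.01 and 0, the median of the 10 was 0.08 at S1, -0.83 at S2, -0.14 at S3, 0.48 at S4 and -2.44 at S5. With rescaling without the 46 abundant unigenes it was 0.17, -0.70, 0.11, 0.56 and -2.38. At S1 0 unigenes were then lower and 1 higher in LR under either scaling, and at S4 2 were lower and 3 higher. At S3 2 were lower and 1 higher under the former, and 1 lower and 2 higher under the latter. At S5 10 of 10 were lower under both, where 34363 and 35128 of all 111217 unigenes were called in either direction.

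**Figure D3:**
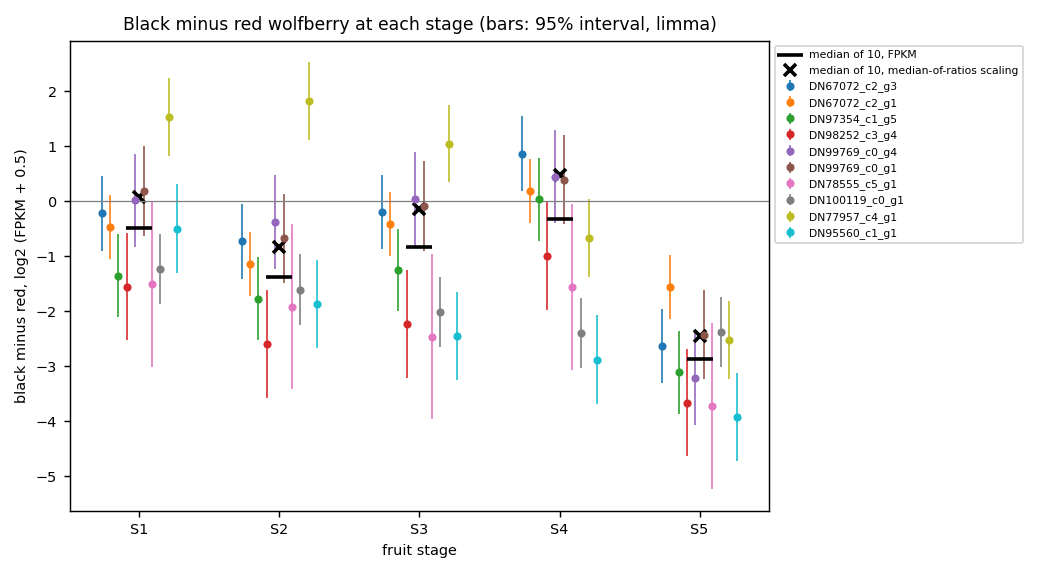
Difference between LR and LB (log2 of FPKM + 0.5) at each stage, 1 coloured point per unigene with its 95% interval from limma, a bar for the median of the 10 and a cross for that median after median-of-ratios scaling. Points lie on both sides of 0 from S1 to S4, where the medians of -0.48 (S1) and -0.32 (S4) become 0.08 and 0.48 with scaling, and all lie between -3.92 and -1.55 at S5.

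From S1 to S5, 10 of 10 unigenes were lower and 0 higher in LR (background 5.39% and 2.97%). The choice of the list on the LR stages favours such calls, so nothing is read from this count. The differences ran from -5.27 to -2.62 with a median of -3.92. In LB 5 of 10 were lower at S5 than at S1 (background 8.98%) and 0 higher (background 5.56%), with a median of -1.70: DN97354_c1_g5 (-3.32), DN67072_c2_g1 (-3.18), DN98252_c3_g4 (-3.16), DN67072_c2_g3 (-2.71) and DN100119_c0_g1 (-1.71), each with an adjusted p of 0.00017 or less. The fit to only the 6 libraries called the first 2 of them, and 6679 of all 111217 unigenes in either direction. The change in LR minus that in LB was negative for 10 of 10, from -4.07 (DN77957_c4_g1) to -1.09 (DN67072_c2_g1), and is given without a test. By steps in LR, given as counts beyond the thresholds from which nothing is read, 0 of 10 were past them in S1 vs. S2 (background 0.335% lower, 0.13% higher), 6 were lower and 0 higher in S2 vs. S3 (background 1.62% and 0.39%), and 0 were past them in S3 vs. S4 (background 0.0279% lower, 0.027% higher).

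Of the remaining 8 readable photosynthesis unigenes, 5 were lower in LB S1 vs. S5 (background 8.98%). In LB S4 vs. S5 1 of 8 was higher (background 0.9%), with a median difference of 1.00 and positive values for 8 of 8. At S5 4 of 8 were lower in LR than in LB (background 21%), with a median of -1.44. DN95576_c0_g3 had 193, 255 and 339 FPKM in LB at S1, 1.43 ± 0.275 on average at S4 and 10.7, 10.9 and 17.8 at S5, and fell by 4.27 from S1 to S5 (SE 0.37, adjusted p = 4.7e-09). DN81637_c0_g1 fell by 4.60 (SE 0.48, adjusted p = 8.6e-08), being listed at 0 in 2 of 3 LB libraries of S4. DN67208_c0_g2 (-3.49) and DN98358_c2_g1 (-1.78) fell as well.

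Of the antenna protein unigenes, 18 could be read. In LB S2 vs. S3 15 of 18 were lower (background 4.06%), in S1 vs. S5 16 of 18 were lower with a median of -3.11 (background 8.98%), and in S4 vs. S5 2 of 18 were higher with a median of 1.40 (background 0.9%). At S5 7 of 18 were lower in LR than in LB (background 21%) and 0 higher (background 12.2%), with a median of -1.92. DN100207_c4_g2 had 190, 228 and 326 FPKM in LB at S1 and 3.04, 6.50 and 4.45 at S5, a fall by 5.61 (SE 0.64, adjusted p = 3.6e-07), and DN74603_c4_g1 fell by 5.08. DN67789_c3_g1 was listed at 0 in all LB libraries of S3 and S4 and in 1 of S5, with 14 and 67.7 FPKM in the other two, after 1228 to 1794 FPKM at S1. DN67789_c3_g5 of the same component fell by 5.31.

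Of the 18 carotenoid biosynthesis unigenes, 6 were lower in LB S1 vs. S5 (background 8.98%) and 2 higher (background 5.56%). In LB S4 vs. S5 0 were called in either direction (background 0.316% lower, 0.9% higher). An unadjusted p of limma under 0.05 was reached by 5. The share of all unigenes at that threshold was not computed, so nothing is read from the 5. At S5 7 were lower (background 21%) and 7 higher (background 12.2%) in LR than in LB. DN98117_c2_g1 was listed at 0 in the LB libraries of S1 and had 5.05, 87.5 and 12.4 FPKM at S5, and DN89338_c3_g1 rose from 13.8 ± 1.15 to 82.8 ± 36.9 FPKM (2.42, SE 0.37, adjusted p = 2.6e-05). DN92833_c0_g2 (-3.94), DN71261_c0_g1 (-2.56) and DN101266_c4_g1 (-2.43) fell in LB. All of these lists were drawn by the study from these same libraries, and none was read in full.

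**Figure D4:**
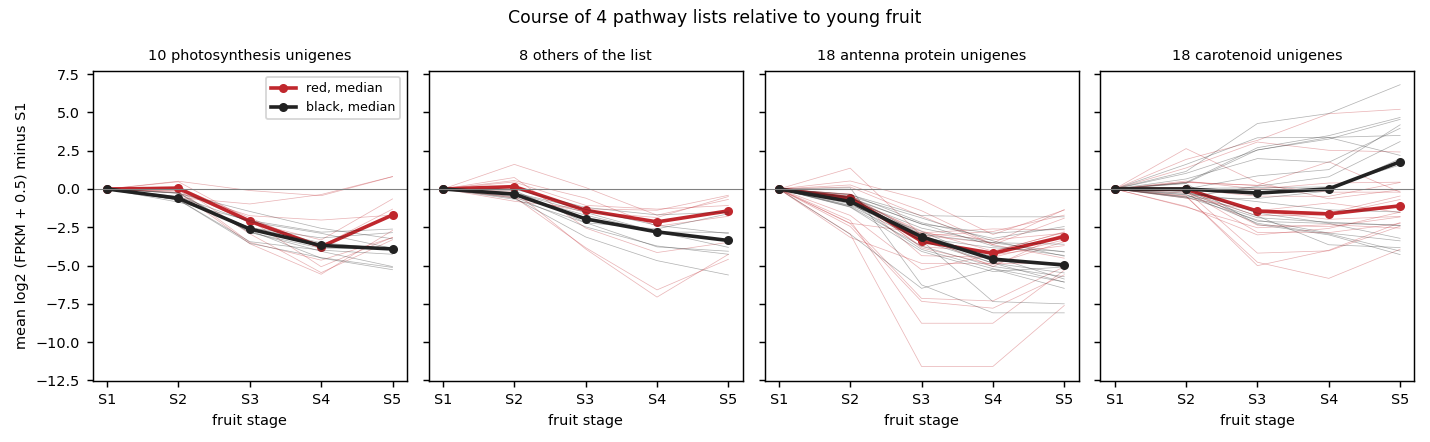
Mean log2 (FPKM + 0.5) at each stage minus that at S1 for 4 lists, with a thin line per unigene and a thick line with points for the median, LB in red and LR in black. At S5 the LB median of the 10 photosynthesis unigenes is at -1.70 and the LR median at -3.92. In the 8 others these are -1.43 and -3.37, and in the antenna list -3.11 and -4.97. In the carotenoid list the LB median is -1.10 and the LR median 1.78, with 10 LR values above 0 and 8 below.

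The unigenes outside the lists whose course over the 10 group means was most like the mean standardised course of the 10 were DN82484_c2_g3 (Pearson r = 0.990), DN78482_c1_g5 (r = 0.988) and DN67711_c0_g3 (r = 0.986). Group means of DN82484_c2_g3 in LB were 349, 450, 82.2, 25.1 and 87.8 FPKM from S1 to S5, and in LR 249, 140, 23.1, 9.45 and 4.61 FPKM. It had the same turn at S4 in LB and none in LR, which its choice by r favours and which adds no support. Of the 111217 unigenes, 63 had an r above 0.95. Among the 100 most alike were 7 of the 10 photosynthesis unigenes, 2 of the 8 others, 5 antenna protein unigenes and 1 carotenoid unigene. The 10 themselves make up the mean course, so their own places are favoured by construction and nothing is read from them. DN95560_c1_g1 (r = 0.766) and DN77957_c4_g1 (r = 0.646) were the least alike of the 10.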

How the data were processed

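RNA of whole fruit was sequenced from poly-A libraries made with a TruSeq kit. The authors trimmed reads with Cutadapt 1.7.1, assembled them with Trinity, clustered transcripts with Corset and deposited FPKM per unigene from uniquely located reads. Bowtie2 is named in the labels, and the versions of Bowtie2, Trinity and Corset are not given in the sources used here. FPKM was used as deposited, for 30 libraries in 10 groups of 3. Read counts and unigene lengths were not used here, so the counting error of single values is unknown and zeros are reported only as listed values.

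Unigenes reaching 1 FPKM in 3 or more libraries were kept, values were turned into log2 (FPKM + 0.5), and 1 mean per group was fitted over all 30 libraries with limma 3.58.1 in R 4.3.3 (eBayes with trend and robust, 20 residual degrees of freedom). The two-sided tests were corrected with the Benjamini-Hochberg procedure over all 111217 unigenes of a comparison. Calls needed an adjusted p under 0.01 and an absolute log2 difference of at least 1. Differences are the later minus the earlier stage, or LR minus LB, and understate the change of low unigenes because of the offset. P-values measure the spread between libraries of a group, each from 1 tree, pooled over all groups. The study names fewer shrubs than libraries for each species, so some shrubs must have given more than 1 library. The tests treat all libraries as independent. The code was tested on simulated data.

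The study was read for its pathway lists, from which the 10 unigenes, 8 further photosynthesis, 18 antenna protein and 18 carotenoid unigenes were taken. Members and lists were chosen with earlier results of these data known. All 10 are described; of each other list up to 4 called unigenes with the largest LB S1 vs. S5 difference and up to 2 against its majority are named, and the 3 unigenes outside the lists most like the 10. Alternatives were offsets of 0.1 and 1, no filter beyond an FPKM above 0 in 3 libraries (184076 unigenes), median-of-ratios scaling (on 37527 unigenes with no zero), rescaling without 46 abundant unigenes (mean of at least 10000 FPKM in a species), a fit to only the libraries compared, a block for the replicate number, and omission of 2 LB libraries together or of each library by itself.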

Additional observations from a re-analysis of the deposited data

Results flagged for a closer look

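Each of the 10 unigenes was scanned over the stage comparisons within a species. A total of 3 changes went opposite ways in LB and LR with no overlap between the libraries of the stages compared in either species. The share of all unigenes that meet this rule was not computed, so nothing is read from the count. For TRINITY_DN97354_c1_g5 in S4 vs. S5 the log2 difference was 2.15 in LB and -0.997 in LR, and the LR change minus the LB change was -3.14. For TRINITY_DN67072_c2_g1 in S4 vs. S5 the differences were 1.48 and -0.27, which gives -1.75. The LR difference was smaller in size than its SE of 0.28. It rests on LR values of 0.19 to 0.42 FPKM at S4 and 0.10 to 0.17 FPKM at S5, too low to read a fall from. For TRINITY_DN77957_c4_g1 in S1 vs. S5 the differences were 0.81 and -3.25, which gives -4.07. The difference between the species was not tested independently of the choice of the unigenes, which used the LR stages, and so no p is given for it.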

How the results depend on the processing

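Offsets of 0.1 and 1 left every count of called unigenes within 1.5 times its value. The counts at S5 between species (10) and in LR S1 vs. S5 (10) stayed at 10 without any single library. Both use the LR values on which the list was chosen, so their stability adds no support. A fit to only the libraries compared, with fewer residual degrees of freedom, called 0 in LB S2 vs. S3, S3 vs. S4 and S4 vs. S5. Over all 111217 unigenes it called 30, 0 and 1 in these steps, so nothing is read from the 0. It called 2 in LB S1 vs. S5 (6679 of all unigenes), 0 in LR S2 vs. S3 (0) and 6 in LR S1 vs. S5 (1761). Between species it called 1 at S1 (25555 of all unigenes), 3 at S2 (21793), 2 at S3 (20423) and 1 at S4 (19138). Median-of-ratios scaling called 2 in LR S4 vs. S5 (1225 of all unigenes). Between species it called 1 at S1 (29317), 3 at S3 (34456) and 5 at S4 (33484). Rescaling without the abundant unigenes called 1 in LR S4 vs. S5 (1239 of all unigenes). Between species it called 1 at S1 (30235), 2 at S2 (30556), 3 at S3 (33832) and 5 at S4 (32324). Without a filter 3 were called between species at S3 (34780 of all 184076 unigenes in that setting). Without the third LB library of S4 and the second of S5, 3 were called in LB S4 vs. S5 and 4 between species at S4. Leaving out each library in turn gave 8 to 9 for stage dependence in LB, 5 to 7 in LB S2 vs. S3, 1 to 3 in LB S3 vs. S4, 3 to 5 in LB S4 vs. S5, 5 to 6 in LB S1 vs. S5, 4 to 7 in LR S2 vs. S3, and between species 1 to 4 at S1, 5 to 6 at S2, 3 to 6 at S3 and 2 to 4 at S4. At S1, for 4 unigenes called under no setting, the species difference of DN67072_c2_g3 turned to 0.36 and 0.45 under the 2 scalings, of DN67072_c2_g1 to 0.11 and 0.20, and of DN95560_c1_g1 to 0.064 and 0.15, and that of DN99769_c0_g4 (0.02) lay between -0.11 and 0.22 when single libraries were left out. Beyond what construction shows, the cause was not tested. Deviations of same-numbered libraries from their group means had weak mean correlations between stages. These were 0.038 to 0.12 in LR, positive for every pair of stages, and -0.035 to 0.066 in LB. Whether the numbers mark the same trees was not tested. A replicate block moved no count by over 1.5 times. It gave 4 in LR S2 vs. S3 and, between species, 3 at S1 (without DN98252_c3_g4, -1.55, adjusted p = 0.020) and 4 at S3. The other counts stayed as they were. Depth limits chiefly DN67072_c2_g1 and DN67072_c2_g3, whose values were 0.15 to 0.41 FPKM in LB at S4 and 0.10 to 0.67 FPKM in LR at S5.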
